A study of Mus musculus with 3 samples.

Results

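The S100 genes encode small proteins with a pair of EF-hand calcium-binding loops, and 10 of them were followed here across the cell types of mouse brainstem with and without a diffuse midline glioma graft: S100a1, S100a4, S100a6, S100a8, S100a9, S100a10, S100a11, S100a13, S100a16 and S100b. They were taken by symbol from the 32285 features of each library, and all 10 had counts. Single-cell RNA sequencing was run on 2 tumour libraries and 1 normal library. The tumour libraries came from untreated B6(Cg)-Tyrc-2J/J mice that had received 100000 cells of DIPG4423, a murine diffuse midline glioma line, into the brain at 6 weeks of age, with brainstem taken 3 weeks later. The normal library came from untreated brainstem of the same strain without a graft, and how many animals went into a library is not stated. The graft is 1 cell line in an immunocompetent host, and nothing in the labels says that the normal mouse had a sham injection.

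Most S100 proteins pair into dimers, change shape when they bind calcium and then dock onto partner proteins. Outside the cell some of them act as danger signals. S100A8 and S100A9 form calprotectin, a metal-binding complex that fills the cytoplasm of neutrophils and is a ligand of the receptors TLR4 and RAGE (gene Ager). In the brain S100B is the classical astrocyte and glial protein of the family. S100A10 joins annexin A2, S100A11 joins annexin A1, S100A4 binds non-muscle myosin, S100A6 (calcyclin) binds the calcyclin-binding protein Cacybp, and S100A13 takes part in the release of FGF1 and interleukin 1 alpha.

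The tumour libraries held 12118 and 10728 barcodes with 151906460 and 157114723 UMIs, against 4354 barcodes and 15035292 UMIs in the normal library. After filtering, 10551, 9391 and 3079 cells remained, with median depths of 8791, 11284 and 2394 UMIs. The libraries shared 13 to 37 barcodes per pair. Cells were grouped without the S100 genes and named from marker genes, and names end in "-like" because they are rebuilt. The glial progenitor-like class, with Pdgfra at 1173 and 1058 CPM (counts per 1000000 UMIs of the class), held 4381 and 2095 cells in the tumour libraries and 0 in the normal one. It is called the graft below. No transcript particular to the injected line was used to name it, so host progenitors in it cannot be told apart. Neurons of all libraries held the hindbrain gene Hoxb3 (32.1 to 50.6 CPM) and had the forebrain gene Emx1 at 0, as hindbrain tissue does. The normal library stood apart in its granulocytes: neutrophil-like cells were 17.6% of its cells against 3.05% and 5.27%. Some other blood cell classes were also larger there. In tumour 1, tumour 2 and normal, granulocyte precursor-like cells numbered 2, 2 and 69 and monocyte-like cells 6, 37 and 128. B cell-like cells were 0.19%, 1.01% and 7.3% of the cells. T or NK-like (0.72%, 1.76% and 1.23%) and dendritic cell-like cells (0.36%, 3.89% and 1.14%) lay in between. Elane, a granulocyte precursor marker, stood at 1.18, 1.98 and 240 CPM in neutrophil-like cells. In the normal library, classes other than neutrophil-like cells also held S100a8 and S100a9 UMIs, as given below.

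By position, 9 of the genes lie on chromosome 3 and S100b lies on chromosome 10 (GRCm38, GENCODE). RefSeq gave a promoter window (GRCm38.p6, 250 bases before to 50 after the gene start) for 9 of the 10 genes. The windows of the S100a8 and S100a9 genes are shown because both transcripts lay in the same cells. Capitals mark matches, on either strand, to the C/EBP letters TTGCNNAA, the AP-1 letters TGANTCA, the TATA letters TATAAA, the GC box GGGCGG and the ETS letters AGGAAGT.
S100a8, chr3:90668821-90669120, plus strand: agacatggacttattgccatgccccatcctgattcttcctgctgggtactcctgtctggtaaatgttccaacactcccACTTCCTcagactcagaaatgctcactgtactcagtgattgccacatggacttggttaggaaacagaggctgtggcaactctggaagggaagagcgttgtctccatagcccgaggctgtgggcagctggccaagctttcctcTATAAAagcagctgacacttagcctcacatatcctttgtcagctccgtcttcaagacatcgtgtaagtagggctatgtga
S100a9, chr3:90695672-90695971, minus strand: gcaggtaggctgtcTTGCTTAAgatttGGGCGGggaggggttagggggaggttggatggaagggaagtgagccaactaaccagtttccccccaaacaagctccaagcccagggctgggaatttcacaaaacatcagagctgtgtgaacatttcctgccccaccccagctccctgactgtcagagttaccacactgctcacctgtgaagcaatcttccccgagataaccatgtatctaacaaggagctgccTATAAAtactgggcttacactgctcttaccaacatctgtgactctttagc
Both windows held TATAAA, which 13.6% of the 32851 RefSeq windows hold, starting 30 bases before the S100a8 start and at the annotated S100a9 start. The S100a8 window held the ETS letters (9.35% of windows). The S100a9 window held the C/EBP letters (10.8%) and the GC box (35.7%). S100a1 and S100a13 start back to back, and the next window shows both, with the 104 bases between the RefSeq starts in capitals.
S100a1 and S100a13, chr3:90514185-90514484, plus strand: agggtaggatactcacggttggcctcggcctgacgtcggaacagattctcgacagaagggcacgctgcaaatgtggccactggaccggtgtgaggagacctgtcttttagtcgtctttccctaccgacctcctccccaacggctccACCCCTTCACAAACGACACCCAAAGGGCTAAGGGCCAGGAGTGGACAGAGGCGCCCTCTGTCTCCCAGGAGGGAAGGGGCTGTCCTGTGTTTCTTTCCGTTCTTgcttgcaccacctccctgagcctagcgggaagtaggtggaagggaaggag
Neither the S100a1 nor the S100a13 window held any of these motifs. The pair had a Pearson r of 0.33 across 41 sums over a class and a library, against 0.96 for S100a8 with S100a9, on log2(CPM + 1). The sums share libraries, so the values are descriptions.

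**Figure D1:**
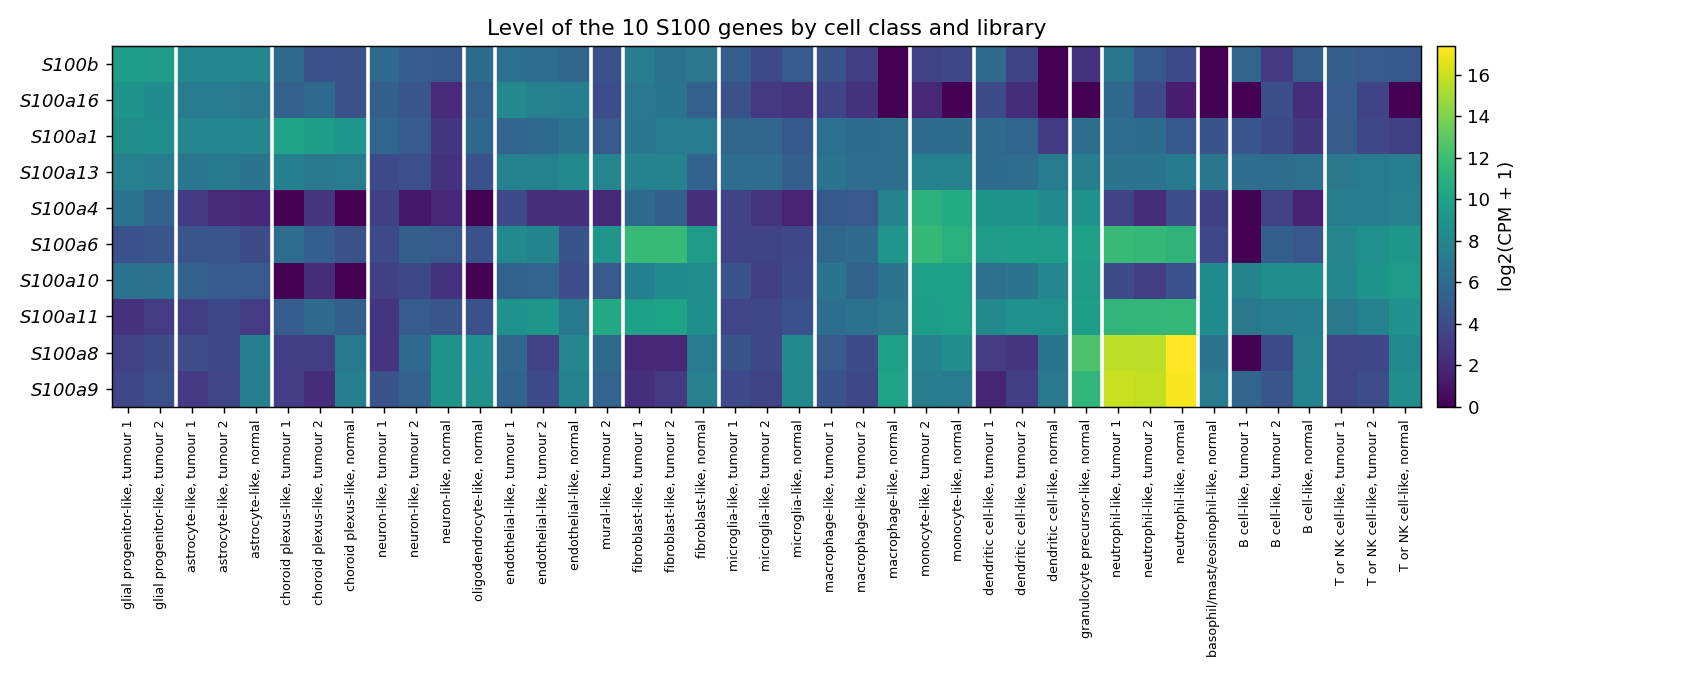
Level of each S100 gene as log2(CPM + 1), by colour, in every cell class (columns, grouped by class and split by library) with at least 20 cells. Within their rows, S100a8 and S100a9 are brightest in neutrophil-like cells, S100b and S100a16 in glial progenitor-like cells, and S100a4 in monocyte-like cells.

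S100a8 and S100a9 were transcripts of neutrophils. Neutrophil-like cells carried 95.6%, 97.2% and 98.3% of all S100a8 UMIs in tumour 1, tumour 2 and the normal library, and 96.7%, 97.4% and 98.7% of those of S100a9. Their S100a8 level was 51600, 52356 and 172860 CPM in that order. Their S100a9 level was 63497, 57977 and 152560 CPM. The normal library was the highest for both genes and the tumour libraries lay close together. In a normal neutrophil-like cell the pair made up a median of 32.7% of all UMIs, against 5.29% and 5.04% in the tumour libraries. These class values mix a pair of clusters whose shares differed between libraries, as given below. S100a8 was 44.8% and 47.5% of the summed S100a8 and S100a9 UMIs in the tumour neutrophils and 53.1% in the normal ones, with exact 95% intervals that do not overlap (44.5 to 45.1%, 47.2 to 47.7% and 53.0 to 53.2%). Intervals cover counting error only.

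S100a8 UMIs outnumbered S100a9 UMIs in the granulocyte precursor-like and monocyte-like cells of the normal library. Its share of the pair was 67.8% in granulocyte precursor-like cells, with 5892 CPM of S100a8 and 2805 CPM of S100a9 in 69 cells. It was 72.9% in the 128 monocyte-like cells, at 362 and 134 CPM. Both monocyte levels lay below those of the normal neuron-like cells (509 and 510 CPM). The unnamed cluster 18 had a share of 72.8% in the normal library, so the monocyte share is not read as a trait of monocytes. Both shares lie above that of the normal neutrophils by more than counting error (lower bounds 66.7% and 67.7%).

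In the named classes of the normal library other than neutrophil-like, granulocyte precursor-like and macrophage-like cells, S100a8 and S100a9 were no higher than in neurons. The unnamed cluster 18 lay above the neurons for S100a8, at 865 CPM in 104 normal cells, and below them for S100a9, at 324 CPM. Neurons, which are not known to make calprotectin, held 509 CPM of S100a8 and 510 CPM of S100a9 in the normal library. Thinned to 1000 UMIs, 24.1% of 531 normal neuron-like cells had an S100a8 UMI (55.6% before thinning, median depth 2826 UMIs), and 25.1% of 581 normal microglia-like cells did (37.7% before thinning, median depth 1629 UMIs). S100a8 was 49.9% of the pair in the neurons and 46.6% in the microglia, against 53.1% in the normal neutrophils. The source of the UMIs in neurons and microglia was not tested. Astrocyte-like, endothelial-like, microglia-like, T or NK-like, fibroblast-like and B cell-like cells of the normal library lay between 138 and 311 CPM of S100a8, all below the neurons, and the pair is not read as expressed there. The normal macrophage-like cells lay above the neurons, at 963 and 1039 CPM, in 32 cells.

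**Figure D2:**
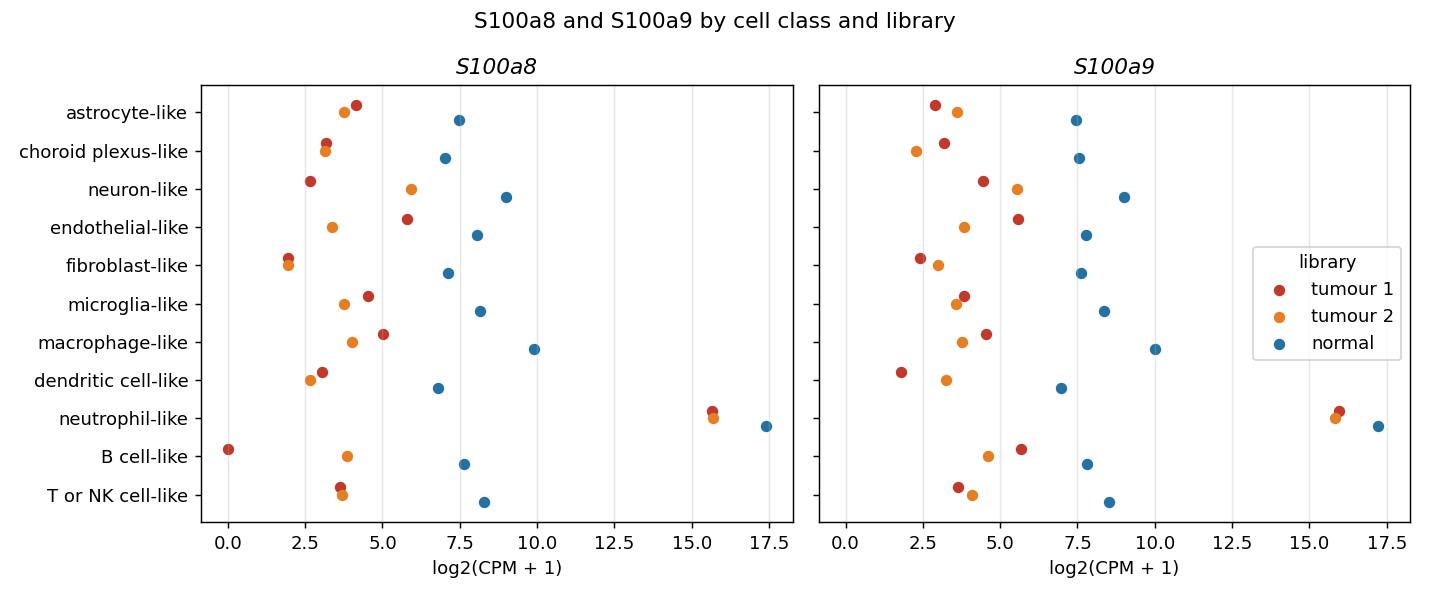
S100a8 (left) and S100a9 (right) as log2(CPM + 1) in the classes with at least 20 cells in all 3 libraries, 1 point per library. The neutrophil-like points stand far to the right, and in every class the normal library lies to the right of both tumour libraries.

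The neutrophil-like class held a pair of clusters. Cluster 27 was led by the granule genes Camp, Ngp and Ltf and held 34, 18 and 348 cells of tumour 1, tumour 2 and normal. The leading genes of cluster 12 included Cxcl2, Il1b and Cxcr2, genes of mature neutrophils, and it held 288, 477 and 193 cells. In cluster 27 the S100a8 level was 114230, 138090 and 180880 CPM. In cluster 12 it was 27746, 37860 and 131960 CPM. Both clusters were lowest in tumour 1 and highest in normal, and cluster 27, with 18 cells of tumour 2, was not tested. In cluster 27, S100a8 and S100a9 together made up a median of 28.2%, 28.4% and 35.5% of a cell's UMIs in tumour 1, tumour 2 and normal. In cluster 12 the medians were 4.02%, 4.59% and 26.6%.

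By level, S100a6 and S100a11 ranked next after S100a8 and S100a9 in neutrophils. S100a6 stood at 2842, 3095 and 8354 CPM in cluster 12 of tumour 1, tumour 2 and normal, and at 4609, 2862 and 1364 CPM in cluster 27. Normal was thus the highest library in one cluster and the lowest in the other, a difference that was not tested. S100a11 stood at 2821, 2998 and 6643 CPM in cluster 12 and at 2784, 2305 and 2327 CPM in cluster 27. The normal library was thus high for S100a11 in mature cells, and it lay between the tumour libraries in cluster 27.

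Across the whole neutrophil-like class, edgeR's quasi-likelihood test on the summed counts called 1 of 10 S100 genes higher and 2 lower in tumour, where 5.31% of 9709 genes were higher, 6.27% lower and 11.6% either. S100a8 changed by -2.31 (log2, SE 0.25, adjusted p = 0.00347) and S100a9 by -1.90 (SE 0.25, adjusted p = 0.00537). S100a16 was the gene called higher, on 48 and 23 UMIs against 4, a call lost under the stricter cell filter (adjusted p = 0.0611) and a change that moved from 3.79 to 2.60 without tumour 1. The summed glial progenitor markers moved with it, at 501 and 162 CPM in the tumour neutrophils with 0 of 8 genes at 0, and 5.25 CPM in the normal ones with 3 of 8 at 0, and their part in it was not tested. In cluster 12 alone, a comparison added after the clusters were seen, 1 of 8 genes was higher and 4 were lower, against 10.5% and 11.8% of all genes (22.3% either). S100a8 changed there by -2.60 (SE 0.31, edgeR adjusted p = 1.85e-06) and S100a9 by -2.34 (SE 0.31, edgeR adjusted p = 6.13e-06). There S100a6 fell by 2.08 (SE 0.33, adjusted p = 7.01e-05) and S100a11 by 1.78 (SE 0.33, adjusted p = 0.00041), while S100a16 did not pass (adjusted p = 0.0582). Over both clusters S100a6 changed by -0.23 (adjusted p = 0.65), and with scaling by library size alone by 0.35.

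**Figure D3:**
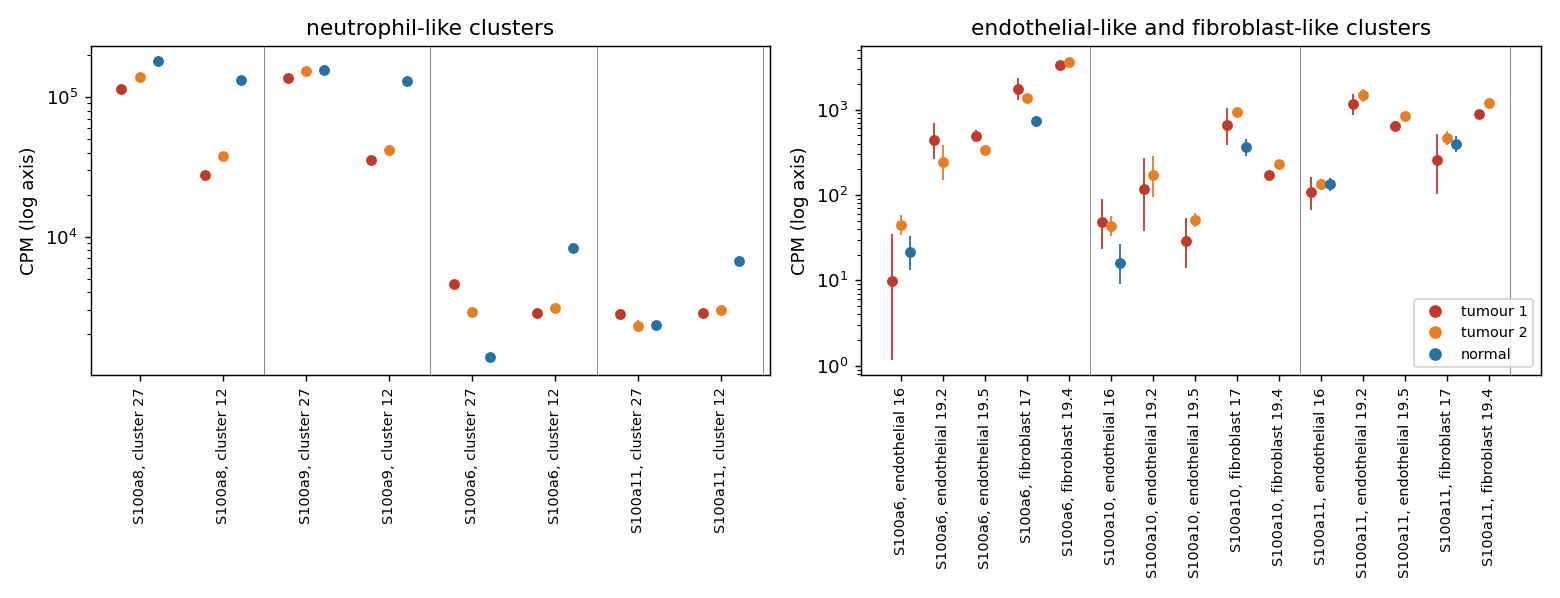
CPM (log axis) by cluster and library, with exact 95% counting intervals, for neutrophil-like clusters 27 and 12 (left) and for endothelial-like and fibroblast-like clusters (right); clusters with under 9 cells in a library and counts of 0 are left out. S100a6 is lowest in the normal library in cluster 27 and highest there in cluster 12, and S100a6 and S100a11 are high in endothelial clusters 19.2 and 19.5, which hold tumour cells only.

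S100b, S100a16, S100a1 and S100a13 were the S100 genes of the glial progenitor-like cells of the tumour libraries. S100b stood at 856 and 748 CPM there in tumour 1 and tumour 2, and these cells carried 95.4% and 94.9% of all S100b UMIs of their libraries. S100b was detected in 98.8% and 99.2% of the cells, and after thinning to 1000 UMIs in 56.0% and 51.1%, against 8.38% and 5.12% of neurons. S100a16, a broadly expressed member of the family, stood at 525 and 345 CPM. S100a1, best known from heart muscle, stood at 410 and 396 CPM, and S100a13 at 194 and 165 CPM. Among classes with 2 or more libraries of at least 20 cells, S100b and S100a16 had their highest level here, with no overlap with the next class.

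The graft exceeded the astrocytes beside it in several of these genes. Its S100b level was 3.02 and 2.83 times that of the astrocyte-like cells of the same library, and its S100a16 level 3.70 and 2.39 times. S100a1 was 1.67 and 1.56 times as high. S100a4 stood at 95.9 and 41.5 CPM in the graft, while astrocyte-like cells held 15 and 3 UMIs of it in all, or 6.91 CPM (interval 3.87 to 11.4) and 3.38 CPM (0.697 to 9.87). S100a6 was close to the astrocyte level, at 0.859 and 1.03 times. These ratios are descriptions of 2 libraries.

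Within the graft, S100a4, S100a6 and S100a10 were high in 1 small cluster. Cluster 21, whose leading genes included the matrix genes Col6a1, Col6a2 and Fmod, held 72 and 125 cells. Its S100a4 level was 460 and 265 CPM, against 107 and 47.9 CPM in cluster 2, which was led by Pou3f1 and Vcan. Its S100a6 level was 105 and 152 CPM, against 19.9 and 25.6 CPM, and its S100a10 level 192 and 519 CPM, against 68.1 and 68.3 CPM. In both tumour libraries all 3 genes were thus 2.81 to 7.60 times as high as in cluster 2. S100a16 went the other way, at 348 and 173 CPM against 616 and 456 CPM. S100b varied less, between 738 and 942 CPM over the 4 clusters of tumour 1 and between 623 and 954 CPM over those of tumour 2, lowest in both in the cycling cluster 11. Cluster 1, which was led by Prss35 and the hypoxia-induced gene Vegfa, had S100a1 at 323 and 404 CPM against 478 and 473 CPM in cluster 2.

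**Figure D4:**
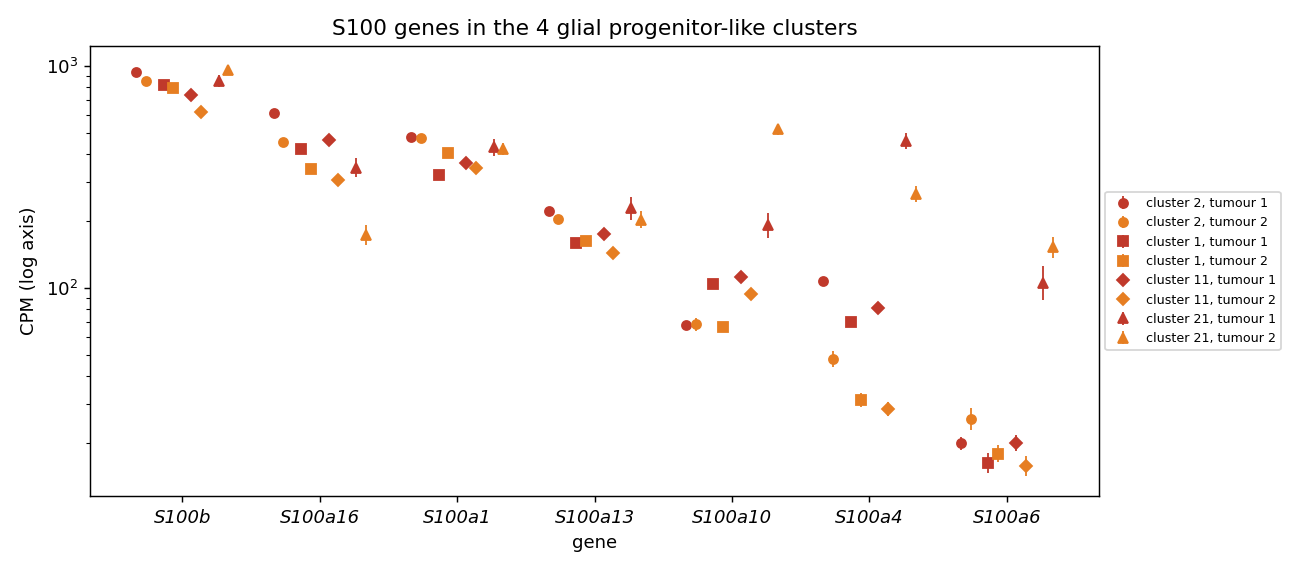
CPM (log axis) of 7 S100 genes in the 4 glial progenitor-like clusters, 1 symbol per cluster and 1 colour per tumour library, with exact 95% counting intervals. The triangles of cluster 21 stand above the other clusters for S100a10, S100a4 and S100a6, and below those of the same library for S100a16.

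In astrocytes no change of the glial S100 genes passed the test. S100b stood at 284, 265 and 252 CPM in the astrocyte-like cells of tumour 1, tumour 2 and normal, and changed by 0.08 (log2, SE 0.24, adjusted p = 0.90). S100a1 stood at 245, 253 and 249 CPM and changed by -0.04 (SE 0.24, adjusted p = 0.95). S100a16 stood at 142, 144 and 120 CPM and changed by 0.21 (SE 0.28, adjusted p = 0.74). Of 9 genes tested, 0 were called higher and 2 lower, where 3.75% of all genes were higher and 2.88% lower (6.64% either). The 2 were S100a8 and S100a9, whose normal values (178 and 174 CPM) lay below those of normal neuron-like cells. DESeq2 gave an adjusted p for 2 of the 9 genes and called 0 of them, with 2 of the 9 at an unadjusted p under 0.05. With doublets kept edgeR called 4, all lower, among them S100a6 (-1.19, adjusted p = 0.00089) and S100a11 (-3.07, adjusted p = 1.84e-22). Under the stricter cell filter S100a6 passed in edgeR as higher instead (1.50, adjusted p = 0.0333). The direction of S100a6 in astrocytes thus depended on the cell filter.

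S100a1 was highest outside the graft. Choroid plexus-like cells, which make the cerebrospinal fluid, held 1080 CPM in tumour 1, 871 CPM in tumour 2 and 557 CPM in normal, 2.63 and 2.20 times the graft level in the tumour libraries. They numbered 24, 68 and 29 cells. In the order of levels they were followed by the graft, the astrocyte-like cells at 245 to 253 CPM and the fibroblast-like cells at 111 to 147 CPM, and no neighbours in this order overlapped. From macrophage-like cells downward neighbours did overlap.

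S100a4 and S100a10 were both highest in monocyte-like cells. Monocyte-like cells held 2359 CPM of S100a4 in tumour 2 and 1707 CPM in normal, and tumour 1 had only 6 such cells. Dendritic cell-like cells came next at 520, 512 and 316 CPM, then T or NK-like cells at 156, 157 and 190 CPM. These classes did not overlap with their neighbours. S100a10 stood at 892 and 961 CPM in monocyte-like cells of tumour 2 and normal. It stood at 282, 515 and 743 CPM in T or NK-like cells and at 223, 374 and 369 CPM in B cell-like cells, where the ranges overlapped. B cell-like cells held almost no S100a4, at 0, 10.0 and 1.97 CPM.

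S100a6 and S100a11 were shared by neutrophils, monocytes, dendritic cells and stroma. S100a6 stood at 3329, 3061 and 2510 CPM in neutrophil-like cells, at 3172 and 2121 CPM in monocyte-like cells of tumour 2 and normal, and at 3324, 3309 and 730 CPM in fibroblast-like cells. The ranges of these classes overlapped. Mural-like cells, the pericytes and smooth muscle of vessels, were found in tumour libraries only, 19 and 86 cells, and held 2231 and 1547 CPM of S100a11. Neutrophil-like cells held 2811, 2898 and 3034 CPM of S100a11 and did not overlap with the next class that 2 or more libraries held.

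S100a13 was spread over many classes. Endothelial-like cells held 196, 195 and 309 CPM, and mural-like cells 402 and 241 CPM in the tumour libraries. Monocyte-like cells of tumour 2 and normal held 196 and 203 CPM, within the endothelial range. Fibroblast-like cells held 222, 220 and 43.2 CPM, and the graft 194 and 165 CPM. Neurons held 14.0, 17.6 and 4.77 CPM.

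Summed over whole libraries, 3 of the 10 genes were higher and 4 were lower in tumour than in normal brainstem, where 12.7% of 20467 genes were higher and 8.13% lower (20.9% either) by edgeR's quasi-likelihood test. In whole-library sums, fewer cells of a type and less RNA per cell cannot be told apart. S100b stood at 635 and 355 CPM against 40.4 CPM, a change of 4.15 (log2, SE 0.51, adjusted p = 0.0135). S100a16 stood at 391 and 172 CPM against 26.3 CPM. It rose by 3.95 (SE 0.61, adjusted p = 0.0179), or 3.25 without tumour 1, and S100a1 by 2.89 (SE 0.38, adjusted p = 0.0145). In all 3 the groups did not overlap, and the glial progenitor-like cells absent from normal carried 90.7% and 81.9% of tumour S100a1 UMIs. S100a11 stood at 47.8 and 132 CPM against 856 CPM. S100a6 stood at 92.1 and 163 CPM against 805 CPM. S100a8 changed by -5.90 (SE 0.65, adjusted p = 0.0119), S100a9 by -5.52 (SE 0.60, adjusted p = 0.0119), S100a11 by -2.67 (SE 0.63, adjusted p = 0.042) and S100a6 by -2.08 (SE 0.44, adjusted p = 0.0326). Without tumour 2 the changes were -3.67 for S100a11 and -2.64 for S100a6, values with no test. Neutrophil-like cells carried 69.9% of normal S100a6 UMIs and 79.5% of normal S100a11 UMIs. Without neutrophil-like and granulocyte precursor-like cells, S100a6 and S100a11 changed by -0.49 and -0.41 and neither passed, while S100a13 passed at 1.48 (adjusted p = 0.0322), where 14.0% of genes were higher and 8.29% lower (22.3% either). S100a4, S100a10 and S100a13 did not pass in the main comparison (adjusted p = 0.159, 0.161 and 0.0707), and with library-size scaling S100a4 (adjusted p = 0.0293) and S100a10 (0.0268) passed as lower. Without the low-count filter S100a13 passed as higher (adjusted p = 0.0486).

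In microglia, the resident macrophages of the brain, S100a13 and S100a1 were higher in tumour. S100a13 had 78.0 CPM in tumour 1, 73.3 CPM in tumour 2 and 37.6 CPM in normal, and rose by 1.57 (log2, SE 0.24, adjusted p = 0.00594). The tumour neurons held 14.0 and 17.6 CPM of it. S100a1 stood at 54.8, 53.6 and 27.1 CPM and rose by 1.57 (SE 0.26, adjusted p = 0.00725), with tumour neurons at 50.6 and 30.5 CPM. The S100a1 level of tumour 1 was thus close to that of neurons in the same library. The summed glial progenitor markers were 175 and 79.0 CPM in tumour microglia with 0 of 8 at 0, and 9.02 CPM in normal microglia with 3 of 8 at 0, and their part in these changes was not tested. In total 2 S100 genes were higher and 2 lower of 10, against 13.6% higher and 6.61% lower of 15079 genes (20.2% either). The 2 lower ones were S100a8 and S100a9, which in normal lay below the neuron level. The microglia lay in different clusters: 668 of the 743 normal cells were in cluster 24, and most tumour cells in clusters 5, 7, 0, 6 and 4.

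In vessels, S100a6, S100a11 and S100a10 were higher in tumour. S100a6 stood at 322, 230 and 21.4 CPM in the endothelial-like cells of tumour 1, tumour 2 and normal, and rose by 3.89 (log2, SE 0.35, adjusted p = 2.72e-11). S100a11 stood at 491, 604 and 133 CPM and rose by 2.28 (SE 0.27, adjusted p = 1.1e-08). S100a10 stood at 42.2, 50.9 and 16.1 CPM and rose by 1.81 (SE 0.41, adjusted p = 0.00069). The groups did not overlap in any of the 3. Of 10 genes 3 were higher and 2 lower, beside 17.9% higher and 12.8% lower of 9864 genes (30.7% either). The 2 lower ones were S100a8 and S100a9, which in normal lay below the neuron level. DESeq2 called 2 of the 10, S100a6 and S100a11. The summed macrophage markers were 101 and 93.0 CPM in the tumour endothelial-like cells with 1 of 9 at 0, and 7.49 CPM in the normal ones with 5 of 9 at 0. The glial progenitor markers were 152 and 158 CPM with 1 and 0 of 8 at 0, against 71.7 CPM with 4 of 8 at 0, and the part of either in these changes was not tested.

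The high S100a6 and S100a11 values of endothelial-like cells lay in clusters that held no cell of the normal library. All 143 normal cells were in cluster 16, led by the blood-brain barrier genes Slco1a4 and Abcb1a. That cluster also held 14 cells of tumour 1, with 205491 UMIs in all, and 65 cells of tumour 2. S100a6 stood at 9.73, 44.9 and 21.4 CPM there and S100a11 at 107, 133 and 133 CPM. For S100a6 the low tumour 1 value rests on few UMIs, and tumour 2 lay above normal, a difference not tested. S100a10 was higher in tumour within cluster 16 itself, at 48.7, 43.4 and 16.1 CPM, a difference not tested there. Clusters 19.2 and 19.5, whose leading genes included Ctla2a, Apln and Cldn5, held 26 and 12 cells of tumour 1, 50 and 59 of tumour 2 and 0 of normal. S100a6 stood at 443 and 246 CPM in cluster 19.2 and at 494 and 334 CPM in cluster 19.5. S100a11 stood at 1167 and 1475 CPM in cluster 19.2 and at 636 and 839 CPM in cluster 19.5. Cluster 19.2 was shallow, with a median of 1118 UMIs per cell, against 32110 in cluster 19.5 and 6658 in cluster 16. In cluster 16 the S100a11 values of tumour 2 and normal were equal to 3 digits, and in both tumour libraries the tumour-only clusters stood above it.

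The fibroblast comparison was chosen after its values were seen. S100a6, S100a13 and S100a11 were higher and S100a8 and S100a9 lower, 5 of 10, where 6.51% of 11054 genes were higher and 3.36% lower (9.87% either). The S100a11 call (adjusted p = 0.0442) was lost with library-size scaling (adjusted p = 0.0627), in DESeq2 (0.125) and with doublets kept (0.28), and the S100a8 and S100a9 changes turned to 0.64 and 0.45 with doublets kept. S100a6 stood at 3324, 3309 and 730 CPM and rose by 2.23 (log2, SE 0.21, adjusted p = 0.0166). S100a13 stood at 222, 220 and 43.2 CPM and rose by 2.40 (SE 0.33, adjusted p = 0.0227). All 51 normal cells were in cluster 17, where S100a6 stood at 1744, 1357 and 730 CPM in 9, 31 and 51 cells. The other 40 and 58 tumour cells were in cluster 19.4, led by Col3a1, Col5a2 and Col6a3, at 3355 and 3617 CPM.

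Macrophage-like cells had less S100a4 and S100a6 in tumour by a comparison that depended on how the cells were clustered. S100a6 had 57.4 CPM in tumour 1, 68.4 CPM in tumour 2 and 549 CPM in normal, and fell by 2.69 (log2, SE 0.32, adjusted p = 0.000823). S100a4 stood at 26.7, 28.6 and 220 CPM and fell by 2.55 (SE 0.37, adjusted p = 0.00343). With S100a8 and S100a9, 0 genes were higher and 4 lower of 10, where 1.45% of 12841 genes were higher and 1.46% lower (2.91% either). Only 32 normal cells were in this class. With S100 genes allowed in the clustering the changes turned to 1.43 for S100a6 (adjusted p = 0.432) and 1.02 for S100a4 (adjusted p = 0.747), and under a stricter cell filter that of S100a4 turned to 0.28. The macrophage markers that name the class also differed. Summed, they were 1691 and 1338 CPM in the tumour cells with 1 of 9 at 0, and 6101 CPM in the normal cells with 0 of 9 at 0. The summed monocyte markers were 156 and 351 CPM in the tumour cells with 0 of 7 at 0, and 2949 CPM in the normal cells with 1 of 7 at 0. The compared cells may thus be unlike in kind, and the part of either list in these changes was not tested.

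T or NK-like cells had 0 genes higher and 3 lower of 8 tested, where 1.91% of 5082 genes were higher and 1.59% lower (3.50% either). Besides S100a8 and S100a9 this was S100a11, at 126, 201 and 449 CPM, which fell by 1.20 (log2, SE 0.35, adjusted p = 0.0227). It did not pass without the low-count filter (adjusted p = 0.145) nor in DESeq2 (adjusted p = 0.344), which gave an adjusted p for 5 of the 8 genes and called 0, with 3 of the 8 at an unadjusted p under 0.05.

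**Figure D5:**
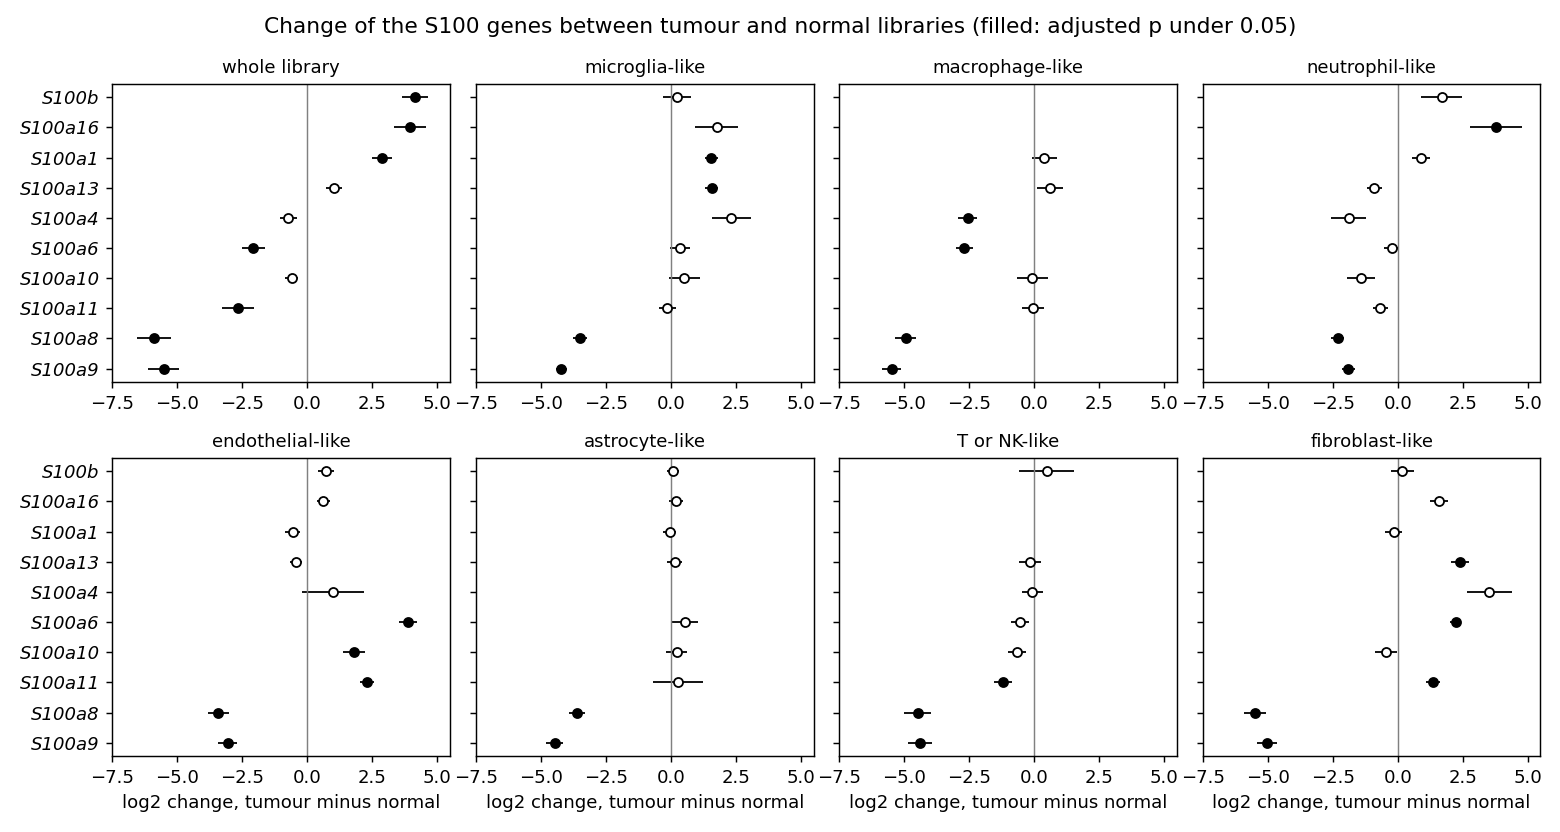
Log2 change of each S100 gene between the tumour and normal libraries (points, with the standard error as a bar) in whole libraries and 7 classes; filled points passed an adjusted p of 0.05 in edgeR. S100b, S100a16 and S100a1 stand on the right in whole libraries, and S100a6, S100a10 and S100a11 in endothelial-like cells. S100b and S100a16 of macrophage-like cells, with 0 normal counts, are left out.

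The changes differed between classes by a test of the difference itself, an edgeR interaction over 18 sums of 6 classes. These sums come from 3 libraries, and the fit treats the classes of a library as separate units (5 residual degrees of freedom). Every change shares the 1 normal library, so the p-values do not measure spread between animals. Against microglia, endothelial-like cells differed in 4 of 10 S100 genes, where 3.27% of 13915 genes had a higher and 1.37% a lower change (4.64% either). The change of S100a6 was higher in endothelium by 3.69 (log2, SE 0.62, adjusted p = 0.00108) and that of S100a11 by 2.57 (SE 0.40, adjusted p = 0.00067). The changes of S100a1 (-1.95, adjusted p = 0.0081) and S100a13 (-1.85, adjusted p = 0.00337) were lower in endothelium than in microglia. The S100a1 difference did not pass under the stricter cell filter (-1.53, adjusted p = 0.0529). Neutrophil-like cells differed from microglia in 3 of 10 genes, where 4.41% had a higher and 9.35% a lower change (13.8% either): S100a13 (-2.43, adjusted p = 9.92e-05), S100a4 (-4.17, adjusted p = 0.0048) and S100a9 (2.34, adjusted p = 0.000518). The S100a9 value rests on a level in normal microglia that lay below that of normal neurons, and that of S100a4 on 3 UMIs there. The S100a4 difference turned to 0.16 with S100 genes allowed in the clustering.

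Of 26 partners and receptors of the S100 proteins, 9 of 21 tested were higher and 3 lower in endothelial-like cells of tumour, beside 17.9% and 12.8% of all genes (30.7% either). Annexin A2 (Anxa2), the partner of S100A10, stood at 435, 501 and 122 CPM and rose by 2.18 (adjusted p = 2.62e-08). Annexin A1 (Anxa1), the partner of S100A11, stood at 89.4, 69.2 and 9.63 CPM and rose by 3.21 (adjusted p = 1.71e-07). Myh9, the myosin that S100A4 binds, rose by 0.98 (adjusted p = 0.00279), while S100a4 itself was at 4.28 to 15.2 CPM in these cells. Ahnak, a large scaffold of the S100A10 and annexin A2 complex, fell by 0.68 (adjusted p = 0.0214). Cacybp, which S100A6 binds, changed by 0.22 and did not pass (edgeR adjusted p = 0.595). Cd33, from the receptor list, stood at 101, 70.8 and 6.42 CPM and rose by 3.89 (edgeR adjusted p = 2.12e-08), beside the higher macrophage markers given above.

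In microglia 9 partners were higher and 2 lower of 25, beside 13.6% and 6.61% of all genes (20.2% either). Anxa2 stood at 51.3, 43.3 and 6.77 CPM and rose by 3.36 (adjusted p = 0.00318), while S100a10 did not pass. Tlr4, a receptor of calprotectin, stood at 20.8, 26.0 and 94.0 CPM and fell by 1.43 (adjusted p = 0.0103). Il1a, whose release S100A13 takes part in, rose by 1.11 (adjusted p = 0.0307). Ager, the gene of the receptor RAGE, was at 0.752 to 2.23 CPM there and did not pass (adjusted p = 0.428). In cluster 12 of the neutrophils 1 of 19 partners was higher and 5 were lower, beside 10.5% and 11.8% of all genes (22.3% either). Among the lower ones was Anxa1 at 406, 346 and 1315 CPM (a fall of 2.40, adjusted p = 2e-05) beside the lower S100a11.

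The genes most like each member across the 41 sums were taken from 7873 compared by Pearson r of log2(CPM + 1). For S100a9 they were Camp (0.93), Ltf (0.93) and Ngp (0.93), for S100a8 Ltf (0.92), Lcn2 (0.91) and Camp (0.91). The single most alike gene was Anxa1 for S100a11 (0.92), Fermt2 for S100a16 (0.90), Ccr2 for S100a4 (0.82) and Crip1 for S100a10 (0.82). It was Jaml for S100a6 (0.84), Dbi for S100a1 (0.83) and 1810037I17Rik for S100a13 (0.86). S100b went with the glial genes Gpm6b, Plekhb1 and Ptprz1 (all 0.84). The sums share libraries and cell classes, so no test is given.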

How the data were processed

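The deposited files hold unnormalized UMI counts. Their headers name Cell Ranger 6.1.2, and the submitters' processing notes name the mm10 build. The labels' protocols describe saline perfusion, a glass grinder, beads against myelin and red cell lysis, and then 10x 3' capture. Barcodes with at least 500 UMIs, 300 genes and at most 15% mitochondrial UMIs were kept, and Scrublet (expected rate 8%) in scanpy 1.11.5 removed 3.42%, 2.63% and 1.60% of those passing in tumour 1, tumour 2 and normal. Counts were scaled to 10000 per cell and logged. A total of 2000 variable genes without S100 genes gave 30 components, 15 neighbours and Leiden clusters (igraph 0.11.9, resolution 1.0, subdivided at 0.5 where the scores of 2 marker lists were within 0.5), with no integration. Clusters took the name of the best of 19 marker lists by a score set after the clusters were seen, and none holds an S100 gene.

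UMIs were summed per class and library. Sums were compared by quasi-likelihood in edgeR 4.0.16 (filterByExpr, TMM, Benjamini-Hochberg threshold 0.05 over all genes) in R 4.3.3, for classes with at least 20 cells in every library. With 2 libraries against 1, there is 1 residual degree of freedom, from the tumour pair, and the normal library is assumed to vary like them. The smallest p of an exact permutation test at that size is 0.333. Nothing in the labels ties libraries to separate animals, so the spread behind each p-value may be technical. For the astrocyte-like class and for T or NK cells, edgeR's prior degrees of freedom were infinite, and their very small p-values rest on a spread pooled over genes. On simulated counts of the whole library (20248 genes), 0% of 100 genes with a 2-fold change and 10% of 100 with a 4-fold change were found, with 1 false of 11 calls. For microglia (14815 genes) the shares were 4% and 64%, with 3 false of 71 calls.

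CPM are UMIs per 1000000 of a class in a library, with exact Poisson 95% intervals. Shares of cells have exact Clopper-Pearson intervals, and for them each cell was thinned to 1000 UMIs. All 10 members are named, with the partner list and up to 3 most alike genes of each. The members, lists and tests were chosen with earlier results of these data known. Alternatives were library-size scaling, DESeq2 1.42.0, no low-count filter, doublets kept, a stricter cell filter (1000 UMIs, 500 genes, 10%), resolution 2.0, S100 genes in clustering and 1 tumour library left out. Those chosen after seeing the data were cluster 12, the fibroblast-like class, and S100a8 and S100a9 left out of the counts.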

Additional observations from a re-analysis of the deposited data

Results flagged for a closer look

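The tumour and normal difference of 4 S100 genes differed between endothelial-like and microglia-like cells by the interaction test, with log2 differences of -1.95 for S100a1, 3.69 for S100a6, 2.57 for S100a11 and -1.85 for S100a13. Between neutrophil-like and microglia-like cells it differed for S100a4 (-4.17), S100a9 (2.34) and S100a13 (-2.43).

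Among the S100 genes outside the 10, S100a2 and S100a3 gave counts in both tumour libraries above the upper counting limit of the normal one. S100a2 had 6.72 CPM in tumour 1 (945 UMIs) and 1.65 CPM in tumour 2 (240 UMIs), against 5 UMIs in normal, and glial progenitor-like cells held 95.6% and 87.9% of these UMIs. S100a3 stood at 2.48 and 0.81 CPM (349 and 118 UMIs), against 2 UMIs in normal, with 92.8% and 88.1% in glial progenitor-like cells.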

How the results depend on the processing

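Of 75 alternative counts, 64 stayed within 1.5 times the count they were set against, 7 were higher and 4 lower. They cover changed S100 genes and, for the doublet, cell filter and clustering settings, S100 genes that kept their class of highest level. DESeq2 counts were set against the edgeR calls among genes with an adjusted p. Of 827 alternative values of single genes, 709 kept direction and side of the threshold, or moved by less than the standard error, and 33 reversed. The cause was not tested, except where the construction gives it. In neutrophil-like cells (3 in the main comparison) 5 genes were called with library-size scaling, 5 without the low-count filter, 6 with doublets kept, beside 2069 of 9709, 1905 of 17281 and 2179 of 10152 genes in all against 1125 of 9709 in the main comparison, 5 in cluster 12, and 1 with S100a8 and S100a9 left out, which removes 2 by construction. DESeq2 called 2 against 5 in endothelial-like cells and 0 against 1 in T or NK-like cells, among genes with an adjusted p. In astrocyte-like cells 4 were called with doublets kept against 2. In macrophage-like cells 1 was called with S100 genes in the clustering against 4. The neutrophil and microglia difference gave 5 with library-size scaling and 6 without the filter, against 3.

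Directions turned with library-size scaling for S100a6 (-0.21), S100a10 (-0.0055) and S100b (-0.30) in microglia, S100a1 in macrophages (-0.050) and S100a6 in neutrophils (0.35), and in the neutrophil and microglia difference for S100a1 (0.47), S100a6 (0.56) and S100a11 (0.63). That scaling moved the median change of all genes from 0.11 to -0.46 in microglia, from 0.14 to -0.42 in whole libraries, from 0.55 to 0.12 in macrophages and from 0.06 to 0.63 in neutrophils. Without the filter S100a10 (0.069) and S100a11 (0.10) in macrophages, S100a1 in astrocytes (0.041) and S100a1 in fibroblasts (0.051) turned. The stricter cell filter turned S100a4 (0.28), S100a10 (0.87) and S100a11 (0.12) in macrophages, S100a1 in astrocytes (0.075) and S100a11 in the neutrophil and microglia difference (0.10). With doublets kept S100a1 (0.10), S100a6 (-1.19) and S100a11 (-3.07) in astrocytes and S100a1 (0.52), S100a8 (0.64) and S100a9 (0.45) in fibroblasts turned. With S100 genes in the clustering S100a4 (1.02), S100a6 (1.43), S100a10 (1.98) and S100a11 (2.21) in macrophages, S100a4 (2.16) and S100a10 (0.76) in neutrophils, S100a1 in astrocytes (0.16), and S100a1 (0.46), S100a4 (0.16) and S100a10 (0.39) in the neutrophil and microglia difference turned.

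The S100a6 and S100a11 changes of endothelial-like cells passed in every alternative with a test. The class with the highest level changed for S100a6 with doublets kept and at resolution 2.0, and for S100a10 at resolution 2.0. Leaving out a tumour library leaves 1 against 1, a value with no test, and moved 28 values of single genes by more than their standard error. Fibroblast-like cells gave no value at resolution 2.0. No paired analysis was possible because there is 1 normal library, so the groups share fewer than 2 replicate numbers. The normal library, with a median of 2394 UMIs per cell, limits what low genes can show.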

Other observations

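The other S100 rows were near the limit of detection. S100a14 had 27, 15 and 0 UMIs in tumour 1, tumour 2 and normal, S100g had 13, 0 and 7, S100a7a had 3, 16 and 6, S100a5 had 3, 14 and 1, and S100z had 0 in all 3 libraries.

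Cluster 18, left unnamed and led by Atp13a4, Trpm3 and Slc7a10, held 126, 21 and 104 cells and had S100b at 218, 114 and 153 CPM. Its normal cells held 865 CPM of S100a8 and 324 CPM of S100a9, so that S100a8 was 72.8% of the pair there, against 49.9% in normal neuron-like cells. Oligodendrocyte-like cells of the normal library, 85 cells after myelin depletion, held 68.5 CPM of S100b.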
